A study of Mus musculus with 50 samples.

Results

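The genes described here were 10 genes of the integrated stress response, chosen by symbol among the 55401 genes of the pgWAT table at 6 h and joined to the tables of the other sets on the gene identifier. They were the factors Atf4, Atf5 and Ddit3 (CHOP), the pseudokinase gene Trib3 and the glutathione-degrading enzyme gene Chac1. The others were the amino acid synthesis genes Asns, Psat1 and Phgdh, the stress sensor Sesn2 and the hormone gene Gdf15. The 10 genes took up 11 rows, because Ddit3 has a further identifier (ENSMUSG00000116429) that overlaps the main one (ENSMUSG00000025408) and held 0 counts in all 50 libraries. How the authors' counting shared reads between these overlapping identifiers is not given in the sources used here.

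This response is the programme by which cells slow protein synthesis and raise a set of transcripts when amino acids run short or proteins misfold. Kinases that sense the stress phosphorylate the translation factor eIF2alpha, general translation falls, and the mRNA of the transcription factor ATF4 is translated better, so that ATF4 activity is set largely after transcription. ATF4 and the factors it induces then raise genes for amino acid synthesis and transport, for glutathione turnover and for secreted stress signals. In skeletal muscle and adipose tissue the programme is known from amino acid shortage and mitochondrial disease, where one of its secreted products, GDF15, acts through the receptor GFRAL on hindbrain neurons.

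All mice were males that carried hM3DGq, an engineered receptor that excites cells in which it is made when clozapine N-oxide (CNO) binds it. TG mice also carried the Gfral Cre driver and WT mice did not, and the design was made to activate the GFRAL neurons of TG mice, so that the tissues sequenced lie far from the neurons acted on. Every group had received CNO at 1 mg/kg, and no group was left without it. The tissues were whole quadriceps of clamped mice (10 TG, 10 WT), perigonadal white adipose tissue (pgWAT) at 1 h after CNO (9 TG, 9 WT) and pgWAT at 6 h (6 TG, 6 WT), and the labels do not say in words that replicates are separate animals.

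Gene counts per library were 959980 to 2613672 in quadriceps, 976610 to 4852560 at 1 h and 9150496 to 12883462 at 6 h in pgWAT. A count of 0 therefore allowed a level of up to 1.026 to 3.302 CPM (counts brought to the same library total) in quadriceps, 0.5958 to 3.357 at 1 h and 0.2413 to 0.3531 at 6 h, counting error only. Skeletal muscle markers summed to 40260 to 47080 CPM in TG quadriceps and 32020 to 56540 in WT quadriceps, and adipocyte markers to 29370 to 36300 CPM in TG pgWAT and 29550 to 37550 in WT pgWAT at 6 h. WT 2 and WT 10 of quadriceps stood apart in inducible heat shock transcripts. They held 2852 and 1594 CPM summed over Hspa1a, Hspa1b and Dnajb1, against at most 286.1 in any other quadriceps library. WT 2 also held 255.1 CPM of liver transcripts, against at most 3.986 CPM in any other quadriceps library. In pgWAT at 1 h, 9 libraries (3 TG, 6 WT) held over 150 CPM of liver transcripts or over 100 CPM of epididymal duct transcripts, the highest being TG 3 with 9664 CPM of liver transcripts. These libraries were kept, and values without them are given with the members' results.

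The promoters of the members are shown because ATF4 is known to act through a short element in several of them. They were read in RefSeq windows of GRCm38.p6 that run from 250 bases before to 50 bases after each annotated start (13 windows for the 10 genes). The C/EBP-ATF response element, the site known to bind ATF4 with its partners, was searched as TGATGNAA on both strands. It matched in 3 of the 10 genes, Chac1, Trib3 and Asns. By window this was 3 of the 13, against 3.97% of all 32851 windows. The matches are printed 5′ to 3′ on the gene's strand with the matched letters in capitals: for Chac1 the stretch from 250 to 51 bases before the start (chr2:119350992-119351191, plus strand), for Trib3 a stretch around the match that begins 15 bases after the start (chr2:152344028-152344057, minus strand), and for Asns one around the match that begins 23 bases before it (chr6:7693214-7693243, minus strand).
Chac1: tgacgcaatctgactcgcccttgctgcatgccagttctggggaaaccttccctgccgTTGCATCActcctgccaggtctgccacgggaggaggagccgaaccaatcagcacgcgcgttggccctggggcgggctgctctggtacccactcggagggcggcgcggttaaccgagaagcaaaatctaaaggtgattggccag
Trib3: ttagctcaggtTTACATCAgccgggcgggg
Asns: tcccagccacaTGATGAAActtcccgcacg
The Chac1 and Trib3 matches lie on the strand opposite to the gene, and the Chac1 match begins 193 bases before the start. The cAMP response element TGACGTCA (1.79% of all windows) and the glucocorticoid response element (a palindrome of half-sites, 0.0578% of all windows) matched in none of the 13 windows, so no match overlapped another motif. A match is a string of letters and not a measured binding site, and these windows hold only part of any gene's regulatory sequence.

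In muscle, Chac1 was the member that differed between genotypes, and it was lower in TG muscle at 49.1% of the WT level. The factors Atf4, Atf5 and Ddit3, measured in the same libraries, did not pass the test. Of the 10 members, 4 had enough counts to be tested, and 1 of them passed an adjusted p of 0.05, against 2.03% of all 8070 genes tested (1.09% higher and 0.942% lower in TG). None of the 4 had a log2 fold change above 0, though that of Ddit3 was -0.01. Their median log2 fold change was -0.224, against -0.003 over all genes tested.

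Chac1 encodes a cytosolic enzyme that splits glutathione and lies downstream of ATF4 and CHOP (ENSMUSG00000027313, chromosome 2, 119351229 to 119354381 on GRCm38, plus strand). Its level in quadriceps was 17.8 CPM in the lowest, 29.8 in the median and 38.5 in the highest TG library, against 37.1, 56.6 and 89.7 CPM in WT libraries. All 10 TG libraries lay below the WT median and 9 lay below every WT library, and the groups overlapped only through TG 4 (38.5 CPM) and WT 3 (37.1 CPM). Mean levels were 29.3 ± 6.47 CPM in TG and 59.9 ± 16.6 CPM in WT muscle (SD, n = 10 each), from 343 counts in all TG and 760 in all WT libraries. The log2 fold change was -1.03 (SE 0.15, 95% interval -1.32 to -0.73, adjusted p = 1.949e-05, edgeR's quasi-likelihood test). Without WT 2 and WT 10, the libraries high in heat shock transcripts, it was -1.08. Leaving out any single library gave -1.08 to -0.94, and each of these fits kept the call.

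Atf4, the central transcription factor of the programme (ENSMUSG00000042406, chromosome 15, 80255184 to 80257541 on GRCm38), ran from 514 to 904 CPM in TG quadriceps with a median of 732, and from 588 to 1098 with a median of 846 in WT quadriceps. The groups overlapped over most of this range, with 8 of 10 TG libraries below the WT median. The log2 fold change was -0.24 (SE 0.11, adjusted p = 0.352 in edgeR's quasi-likelihood test, unadjusted 0.0337). Its 95% interval of -0.45 to -0.02 did not reach the value of Chac1. Without WT 2 and WT 10 the value of Atf4 was -0.25.

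Atf5, a related factor best known from the mitochondrial stress response, averaged 77.6 ± 20.7 CPM in TG and 90.5 ± 31.9 in WT quadriceps (log2 fold change -0.21, adjusted p = 0.729), where WT 1 alone reached 178 CPM. Ddit3, which encodes the proapoptotic factor CHOP, averaged 11.3 ± 4.05 CPM in TG and 11.5 ± 3.27 CPM in WT (SD, n = 10 each), with an interval of -0.42 to 0.41 around its log2 fold change of -0.01. Without WT 2 and WT 10 the log2 fold changes were -0.30 for Atf5 and 0.06 for Ddit3, neither past the test. The genotypes overlapped for both genes, with 7 TG libraries of Atf5 and 5 of Ddit3 below the WT median.

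The other 6 members were at or near the detection limit in quadriceps and could not be tested. All TG libraries together held 39 counts of Trib3, a pseudokinase that CHOP and ATF4 induce, and all WT libraries 30. The sums were 52 in TG and 50 in WT for Psat1 and 35 in TG and 37 in WT for Sesn2. Asns, which makes asparagine, had 8 counts in TG and 23 in WT, 13 of these in WT 6, the deepest library. Gdf15 had 7 counts in each genotype, and Phgdh 1 in TG and 5 in WT. At this depth no statement on the direction of these 6 genes in muscle could be made.

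**Figure D1:**
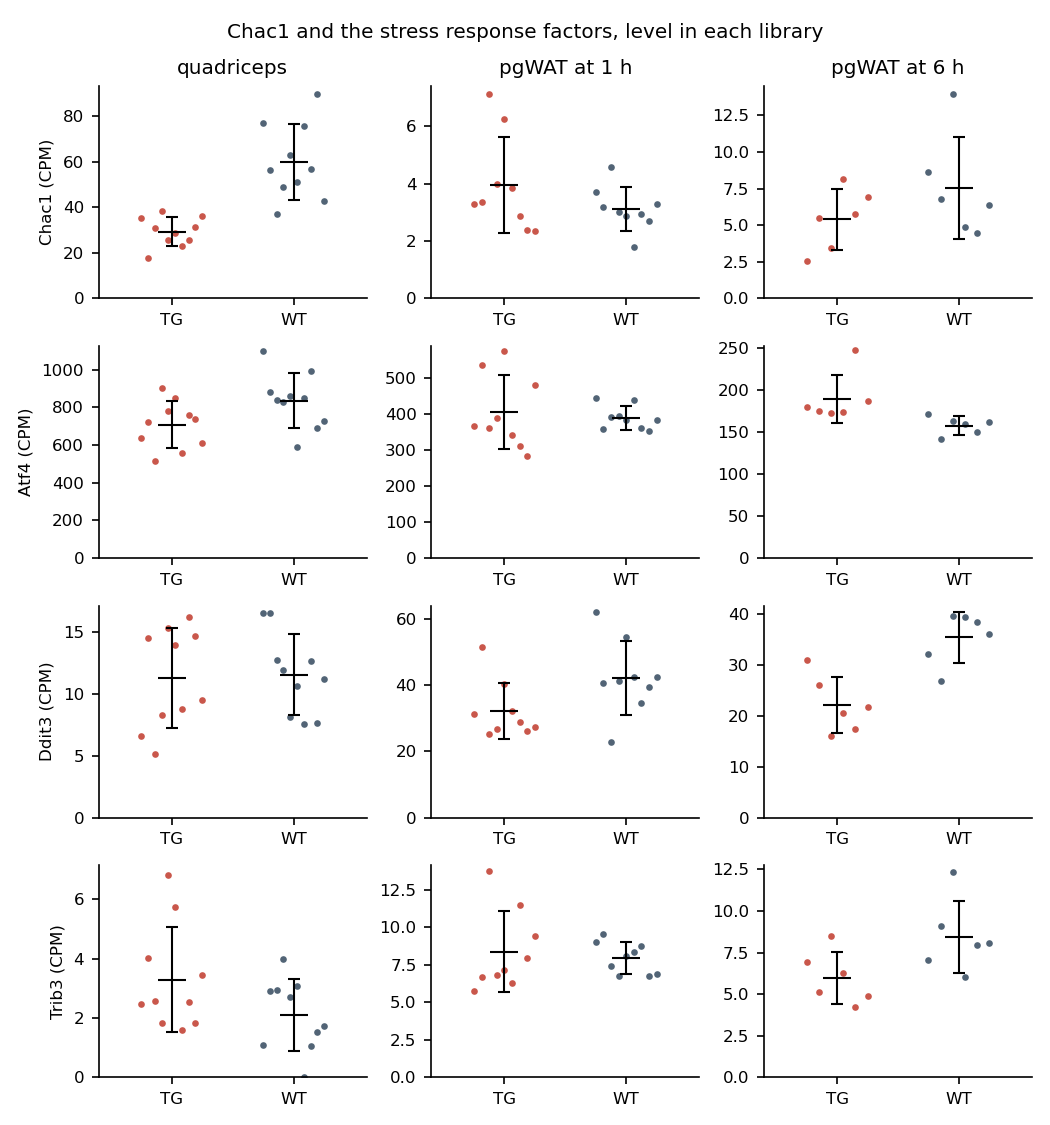
Level in CPM of Chac1, Atf4, Ddit3 and Trib3 (rows) in each library of the muscle set, the 1 h set and the 6 h set of adipose tissue (columns), TG left of WT. Points are libraries, the horizontal bar is the mean and the whiskers are 1 SD, each axis starts at 0 and has its own scale. The TG points of Chac1 in quadriceps lie at 17.8 to 38.5 CPM and the WT points at 37.1 to 89.7 CPM, while Atf4 overlaps there and lies higher in TG pgWAT at 6 h with no overlap.

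One hour after CNO none of the members passed the test in pgWAT, where 0.0722% of 11087 genes did (0.0541% higher and 0.018% lower in TG). Chac1 and Gdf15 had too few counts, so that 8 members were tested, and 1 of these had an unadjusted p under 0.05. DESeq2 also called 0 members. The median log2 fold change of the 8 was -0.03, against 0.01 over all genes.

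The member with the smallest p at 1 h was Ddit3. It was at 25.3 CPM in the lowest, 28.7 in the median and 51.5 in the highest TG library, against 22.9, 41.1 and 61.97 CPM in WT libraries. Of 9 TG libraries 8 lay below the WT median, but the WT range enclosed all of them. The log2 fold change was -0.42 (SE 0.16, unadjusted p = 0.0155, adjusted p = 0.998 in edgeR's quasi-likelihood test). Atf4 averaged 405 ± 102 CPM in TG and 389 ± 33.2 CPM in WT pgWAT (log2 fold change 0.05, 95% interval -0.19 to 0.30), and Atf5 240 ± 63.8 CPM in TG and 239 ± 35.9 CPM in WT (0.00). Trib3 stood at 8.37 ± 2.68 CPM in TG and 7.96 ± 1.05 in WT (0.07), where TG 3 was the highest at 13.7 CPM. Without the 9 libraries that held transcripts of other organs, the log2 fold changes were -0.36 for Ddit3, 0.04 for Atf4, 0.08 for Atf5 and 0.06 for Trib3, none past the test.

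Among the amino acid genes at 1 h, Psat1, a serine synthesis enzyme, had 225 ± 43.9 CPM in TG and 242 ± 27.1 in WT. Phgdh, the first enzyme of the same pathway, had 16.8 ± 6.62 CPM in TG and 15.0 ± 6.35 in WT, and Asns 24.5 ± 3.44 CPM in TG and 25.1 ± 9.34 in WT. Sesn2, a leucine sensor that restrains mTORC1, had 38.3 ± 11.3 CPM in TG and 41.2 ± 11.1 in WT. Their log2 fold changes lay between -0.11 and 0.17, and the adjusted p-values of all 4 were 1.00. Without the 9 libraries they were 0.03 for Psat1, 0.65 for Phgdh, 0.30 for Asns and -0.43 for Sesn2, again with adjusted p-values of 1.00, so that the directions of Psat1 and Asns rested on which libraries were kept.

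Chac1 gave 65 counts in all TG and 58 in all WT libraries of pgWAT at 1 h, that is 2.35 to 7.14 CPM in TG and 1.79 to 4.58 CPM in WT. TG 3 (7.14 CPM) and TG 5 (6.26 CPM) lay above every WT library, WT 6 (1.79 CPM) below every TG library, and the others overlapped. With no filter on low counts its log2 fold change was 0.31 (adjusted p = 0.833). Gdf15 summed to 177 counts in TG and 101 in WT libraries, but 110 of the TG counts came from TG 3 (60.4 CPM), the library with 9664 CPM of liver transcripts. The other 8 TG libraries held at most 8.62 CPM and WT libraries 0.41 to 16.1 CPM. The part of liver RNA in the Gdf15 value of TG 3 was not tested.

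At 6 h in pgWAT all 10 members could be tested, and 2 passed, in opposite directions. Atf4 was higher and Ddit3 lower in TG, and the other 8 did not pass. These 2 of 10 stand beside 14.4% of 14359 genes called at this time (6.88% higher and 7.54% lower in TG), so that the members' share was near the background. Of the 10 log2 fold changes 5 were above 0, their median was 0.03 against 0.00 over all genes, and 5 members had an unadjusted p under 0.05.

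Ddit3 (chromosome 10, 127290774 to 127296288 on GRCm38) was at 16.0 CPM in the lowest, 21.1 in the median and 31.0 in the highest TG library at 6 h, against 26.9, 37.2 and 39.7 CPM in WT libraries. All 6 TG libraries lay below the WT median and 5 below every WT library, with TG 1 (31.0 CPM) reaching into the WT range. Its means were 22.1 ± 5.58 CPM in TG and 35.4 ± 5.03 CPM in WT (SD, n = 6 each). The log2 fold change was -0.68 (SE 0.15, 95% interval -0.99 to -0.37, adjusted p = 0.00497, edgeR's quasi-likelihood test), which puts TG at 62.6% of WT. Every single library left out kept the call, with adjusted p-values of 3.13e-04 to 0.0139.

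Atf4 lay at 172 CPM in the lowest, 178 in the median and 248 in the highest TG library at 6 h, against 141, 161 and 171.5 CPM in WT libraries. The groups did not overlap, but 5 of the TG libraries were between 172 and 188 CPM, close above WT 1 at 171.5, and TG 5 stood alone at 248. The log2 fold change was 0.26 (SE 0.08, 95% interval 0.08 to 0.44, adjusted p = 0.0454, edgeR's quasi-likelihood test), with means of 190 ± 29.04 CPM in TG and 158 ± 10.8 CPM in WT. This call was lost under upper quartile scaling (adjusted p = 0.0550), in the non-robust fit (0.0535), with a replicate block (0.0756) and in 8 of 12 fits that left out a library (TG 5, TG 6 or any WT library, up to 0.0909), and the log2 fold change without TG 5 was 0.17.

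Trib3 did not pass, with 6.00 ± 1.56 CPM in TG and 8.44 ± 2.17 in WT pgWAT at 6 h (log2 fold change -0.50, unadjusted p = 0.0205, adjusted p = 0.104 in edgeR's quasi-likelihood test). Of 6 TG libraries 5 lay below the WT median. Trib3 passed in 1 of 12 fits that left out a library, the one without TG 3 (-0.61, adjusted p = 0.0488). Chac1 had 5.39 ± 2.10 CPM in TG and 7.52 ± 3.49 in WT, from 370 counts in TG and 498 in WT, with 2.56 to 8.12 CPM in TG and 4.44 to 13.9 CPM in WT libraries. Its log2 fold change of -0.47 had an interval of -1.12 to 0.19 (adjusted p = 0.371), which takes in both no difference and the size seen in quadriceps. Leaving out 1 library moved the value between -0.62 and -0.20, the second without WT 3, the highest library.

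The synthesis genes had higher means in TG at 6 h, none past the test. Psat1 averaged 138 ± 18.1 CPM in TG and 118 ± 15.3 in WT (log2 fold change 0.22, adjusted p = 0.156) and Phgdh 85.1 ± 9.31 CPM in TG and 75.4 ± 4.33 in WT (0.18, adjusted p = 0.132), with 5 of 6 TG libraries above the WT median for each. Phgdh passed in 1 of 12 fits that left out a library, the one without TG 6 (0.23, adjusted p = 0.0366). Asns stood at 49.5 ± 8.79 CPM in TG and 45.4 ± 10.7 in WT (0.12, adjusted p = 0.664). Sesn2 had 26.7 ± 4.03 CPM in TG and 20.98 ± 6.65 in WT (0.35, adjusted p = 0.226). It passed in 1 of 12 such fits, the one without WT 3, at 33.2 CPM the highest of all (0.53, adjusted p = 0.0147). Atf5 (-0.06) had an interval of -0.25 to 0.13, and Gdf15 (-0.08) one of -1.17 to 1.01 from 257 counts in TG and 270 in WT libraries.

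**Figure D2:**
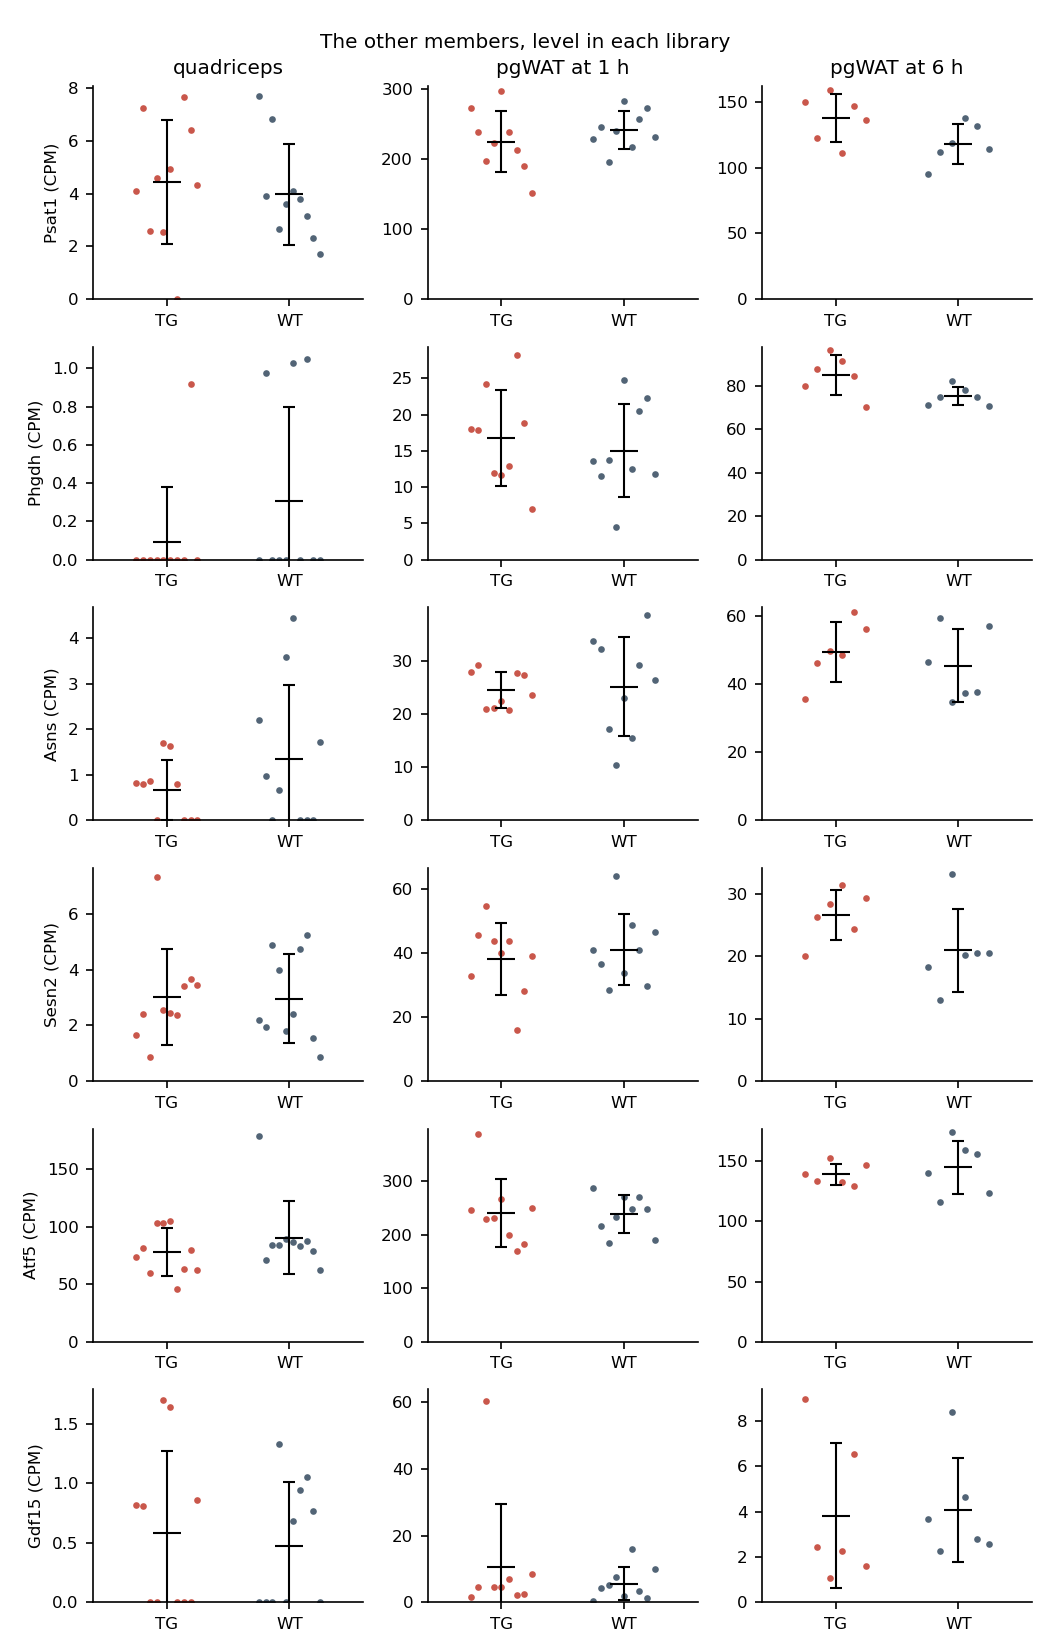
Level in CPM of Psat1, Phgdh, Asns, Sesn2, Atf5 and Gdf15 (rows) in each library of the 3 sets (columns), TG left of WT. Points are libraries, the bar is the mean and the whiskers 1 SD, with whiskers that would pass below 0 ending at the axis, and each axis has its own scale. TG and WT overlap in every panel, and Gdf15 at 1 h has a single TG library at 60.4 CPM.

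**Figure D3:**
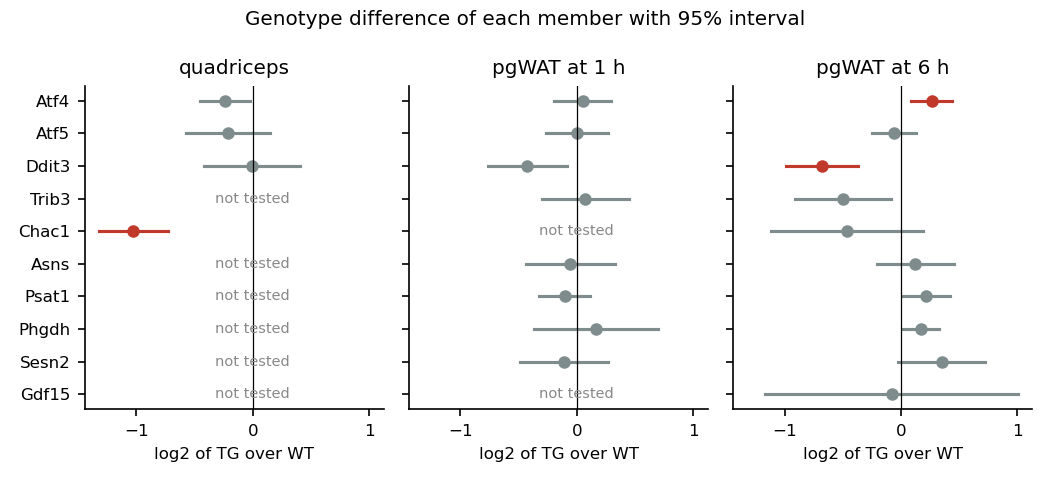
Log2 fold change of TG over WT (horizontal axis) of each member (rows) in the 3 sets, with its 95% interval from edgeR's quasi-likelihood fit. Red marks an adjusted p under 0.05, and members with too few counts are given as not tested. Chac1 at -1.03 in quadriceps, Ddit3 at -0.68 and Atf4 at 0.26 in pgWAT at 6 h are the 3 red values.

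Transcripts that mark other tissues or cell types differed between libraries at 6 h, some higher and some lower in TG, and their part in these values was not tested. Skeletal muscle markers summed to 61.7 to 120.5 CPM in TG and 22.6 to 50.6 CPM in WT pgWAT. This came from Acta1, at 81.8 ± 22.6 CPM in TG and 34.2 ± 11.8 in WT (log2 fold change 1.26). Mylpf, the other of the 2 markers with enough counts to test, had a log2 fold change of -0.08 and did not pass, and up to 2 of the 6 markers were at 0 in a library of either genotype. Liver transcripts reached 1462 CPM in TG 2 and 42.3 to 81.2 CPM in other libraries. Lymphocyte markers ran the other way, at 2.33 to 5.94 CPM in TG and 4.85 to 20.6 CPM in WT libraries. Of these markers 2 were tested, and 0 passed. Of 6 tested mesothelial markers 1 passed, lower in TG. In bulk tissue a lower level may mean fewer cells of a type or less RNA per cell, and these cannot be told apart.

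Levels of 1 gene across the sets are set side by side as a description. The tables were normalised separately, and the 6 h libraries were made without the module that adds unique molecular identifiers. In WT mice Chac1 was at 59.9 CPM in quadriceps, 3.11 at 1 h and 7.52 at 6 h in pgWAT, and the quadriceps libraries of WT lay above all pgWAT libraries of WT. Psat1 ran the opposite way, at 3.97 CPM in quadriceps, 242 at 1 h and 118 at 6 h, as did Ddit3 at 11.5, 42.2 and 35.4 CPM in the same order. Atf4 was at 836, 389 and 158 CPM.

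Whether the genotype difference itself differed between sets was tested with an interaction term for each pair of sets. By their titles the quadriceps and pgWAT sets differed in tissue and in the clamp, and the titles give no time after CNO for quadriceps. The 6 h set also differed from the others in library preparation. These cannot be told apart in the differences between sets. A member entered these fits if it had enough counts in as many libraries as the smallest group holds, from either set. Some therefore entered through the set where they were high. Chac1 was the 1 of 9 tested members past the threshold between quadriceps and pgWAT at 1 h, where 0.273% of 11009 genes passed. Its log2 fold change in quadriceps minus that at 1 h was -1.28 (SE 0.30, 95% interval -1.89 to -0.67, adjusted p = 0.0472, edgeR's quasi-likelihood test). Of the 9 members 3 (Atf4, Atf5 and Ddit3) were tested in both sets alone, and nothing is read from the differences of the other 6. Chac1 is among these 6. Its side at 1 h rested on 3 to 13 counts in each TG and 3 to 10 in each WT library, too few for a test at 1 h alone. It entered this fit through quadriceps, where it was high. The call was lost with a replicate block (adjusted p = 0.0740), in 27 of 38 fits without a library (up to 0.146) and without the 11 libraries high in heat shock transcripts or transcripts of other organs (-0.80, adjusted p = 0.767).

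Between quadriceps and pgWAT at 6 h none of 8 members in the fit passed, where 5.06% of 10729 genes did. Of the 8, Asns, Phgdh, Psat1 and Sesn2 had too few counts in quadriceps for a test there, and nothing is read from their differences. Atf4 and Ddit3 had an unadjusted p under 0.05. The difference was -0.55 for Chac1 (95% interval -1.22 to 0.11), -0.48 for Atf4 (adjusted p = 0.0596) and 0.69 for Ddit3 (adjusted p = 0.132). DESeq2 called Atf4 in this comparison (adjusted p = 0.0450). Between pgWAT at 6 h and at 1 h none of 10 members in the fit passed, against 4.21% of 13022 genes. Of the 10, Chac1 and Gdf15 had too few counts at 1 h for a test there, and nothing is read from their differences. Between these times the difference was -0.25 for Ddit3 (95% interval -0.72 to 0.23). It was -0.57 for Trib3 (unadjusted p = 0.0426) and 0.33 for Psat1 (unadjusted p = 0.0470), the 2 members with an unadjusted p under 0.05. The fall of Ddit3 at 6 h is thus not shown to differ from its log2 fold change at 1 h, which did not pass.

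Of the wider programme, genes of amino acid synthesis and transport were measured from a list of 21 further ATF4 targets. In quadriceps 9 were tested and 1 passed, against 2.03% of all genes. This was Slc38a2, the transporter SNAT2 that takes up neutral amino acids with sodium. It was at 234 CPM in the lowest and 407 in the highest TG library, against 458 and 885 CPM in WT libraries. The groups did not overlap. Means were 341 ± 53.7 CPM in TG and 589 ± 137 CPM in WT (SD, n = 10 each), with a log2 fold change of -0.79 (SE 0.12, adjusted p = 1.83e-04). Without WT 2 and WT 10, at 769 and 885 CPM the highest libraries, it was -0.63 (adjusted p = 5.65e-06). Without these libraries Slc7a1, a cationic amino acid transporter, also passed, higher in TG (0.71, adjusted p = 0.0317).

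In pgWAT at 1 h none of 15 tested genes of that list passed, against 0.0722% of all genes. At 6 h 3 of 18 passed, all higher in TG, against 14.4% of all genes (6.88% higher). DESeq2 also called Cbs (0.62) and, lower in TG, Slc6a9 (-0.51) at 6 h. The 3 genes were Slc3a2, the heavy chain shared by several amino acid exchangers, Mthfd2, a mitochondrial folate enzyme, and Bcat1, the cytosolic branched-chain aminotransferase. Slc3a2 ran from 194 to 266 CPM in TG and from 123 to 162 CPM in WT libraries with no overlap (log2 fold change 0.69, SE 0.08, adjusted p = 2.16e-05). Mthfd2 was at 17.2 to 26.0 CPM in TG and 8.16 to 12.8 CPM in WT, also without overlap (1.06, SE 0.14, adjusted p = 5.78e-05). Bcat1 averaged 10.6 ± 1.82 CPM in TG and 5.97 ± 2.64 CPM in WT (0.82, adjusted p = 0.0211), and its call was lost without WT 1 (adjusted p = 0.0527). The median log2 fold change of the 18 genes was 0.25, against 0.00 over all genes. Slc38a2 did not pass at 6 h (74.1 ± 9.86 CPM in TG and 73.1 ± 9.73 in WT).

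**Figure D4:**
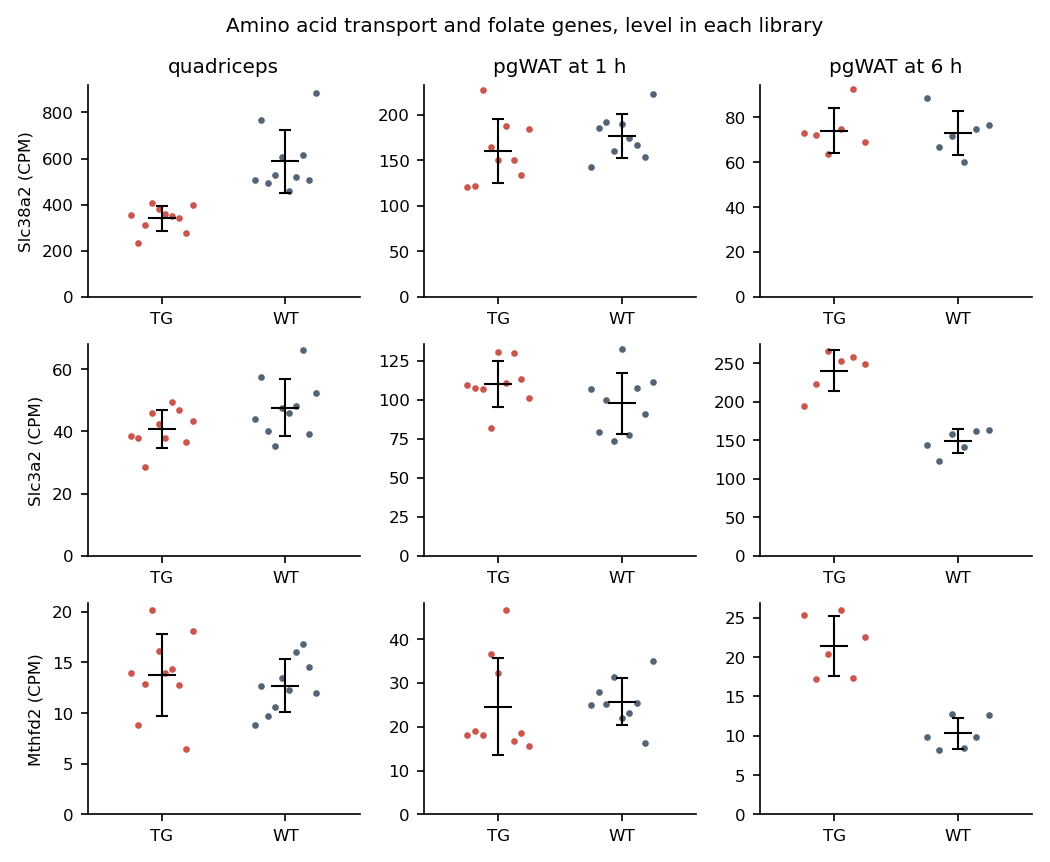
Level in CPM of Slc38a2, Slc3a2 and Mthfd2 (rows) in each library of the 3 sets (columns), TG left of WT, with mean and 1 SD and a scale of its own for each axis. Slc38a2 separates the genotypes in quadriceps (234 to 407 CPM in TG, 458 to 885 in WT), Slc3a2 and Mthfd2 in pgWAT at 6 h.

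Among 12 tested genes of tRNA charging in quadriceps, synthetases and the tRNA exportin Xpot, the methionyl-tRNA synthetase gene Mars1 was lower in TG (48.1 ± 8.28 CPM in TG and 62.6 ± 9.57 in WT, log2 fold change -0.39, adjusted p = 0.0451), a call lost in 12 of 20 fits without a library (up to 0.108). Mars1 was the 1 of 12 that passed in quadriceps, against 2.03% of all genes. In pgWAT none of 13 passed at either time, against 0.0722% of all genes at 1 h and 14.4% at 6 h. Of the other ATF4 and CHOP targets, Ddit4, an mTORC1 inhibitor that glucocorticoids and hypoxia also induce, was higher in TG in each set. Its log2 fold change was 0.49 in muscle (adjusted p = 0.00395, edgeR's quasi-likelihood test), where 1 of 13 tested genes passed against 2.03% of all genes. In adipose tissue at 1 h it was 0.89 (adjusted p = 0.00103), with 1 of 18 passing against 0.0722% of all genes. At 6 h it was 2.44 (adjusted p = 3.53e-05). At 1 h the call was lost without the 9 libraries that held transcripts of other organs (log2 fold change 0.91, adjusted p = 0.306), with 3 WT libraries left.

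At 6 h 2 more of the 18 tested genes of that group passed, 3 in all, against 14.4% of all genes. Ndrg1, a stress-induced growth regulator, was higher in TG (168 ± 30.5 CPM in TG and 115 ± 13.99 in WT, log2 fold change 0.55, adjusted p = 0.00684). Bbc3, the proapoptotic BH3 protein PUMA that p53 and CHOP induce, was lower (8.99 ± 1.90 CPM in TG and 15.2 ± 2.65 in WT, -0.75, adjusted p = 0.00259). Atf3 in quadriceps averaged 18.9 ± 14.4 CPM in TG and 77.3 ± 113 in WT and did not pass (adjusted p = 0.228).

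Of 16 tested genes for eIF2alpha kinases, phosphatase subunits and eIF2B in quadriceps and 17 in pgWAT at 1 h none passed. Over all genes 2.03% and 0.0722% passed in these sets. At 6 h 2 of 18 did, against 14.4% of all genes, both close to the threshold. Impact, an inhibitor of the kinase GCN2, was lower (log2 fold change -0.22, adjusted p = 0.0361, lost in 9 of 12 fits without a library, up to 0.0869), and Eif2s2, the beta subunit of eIF2, was higher (0.16, adjusted p = 0.0499, lost in 11 of 12, up to 0.0879). For the IRE1 and ATF6 arms of the unfolded protein response, 0 of 15 tested genes passed in quadriceps, against 2.03% of all genes. At 1 h 0 of 20 passed, against 0.0722% of all genes, and at 6 h 1 of 20, against 14.4%. The 1 was Creld2, an endoplasmic reticulum chaperone (7.37 ± 0.74 CPM in TG and 10.1 ± 1.51 in WT at 6 h, -0.46, adjusted p = 0.0252). Its call was lost without TG 6 or WT 2 (up to 0.0651) and with no filter on low counts (0.0608). At 6 h DESeq2 also called Xbp1 of these arms, lower in TG (-0.37, adjusted p = 0.0496), and Eif2b1 of the eIF2B genes, higher (0.20, adjusted p = 0.0495). With no filter edgeR called Impact in quadriceps, lower in TG (-0.45, adjusted p = 0.0294).

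None of the genes of glutathione synthesis and breakdown, the pathway of Chac1 itself, passed in any set. The counts were 0 of 9 tested in quadriceps, 0 of 13 at 1 h and 0 of 13 at 6 h. Over all genes 2.03%, 0.0722% and 14.4% passed in these sets, and no result about the pathway is read from these counts. Chac2, the constitutive paralogue of Chac1, averaged in quadriceps 15.3 CPM in TG and 15.7 CPM in WT (log2 fold change -0.07). Unadjusted p-values under 0.05 were found for 1 of the 9 genes in quadriceps, 0 at 1 h and 2 at 6 h, and DESeq2 called 0 in each set. Of 11 genes of mitochondrial stress, 1 passed at 6 h, against 14.4% of all genes, and none in quadriceps or at 1 h. It was Clpx, a matrix protease subunit, higher in TG (35.1 ± 3.59 CPM in TG and 26.3 ± 3.63 in WT, 0.42, adjusted p = 0.00746). The 3 inducible heat shock genes were below the WT median in all 10 TG quadriceps libraries with adjusted p-values of 0.0772 to 0.0846. DESeq2 called Dnajb1 and Hspa1b, the non-robust fit all 3, and without WT 2 and WT 10 Dnajb1 passed (log2 fold change -0.98, adjusted p = 0.00405). At 6 h Dnajb1 was higher (0.78, adjusted p = 0.00159) and Hspa1b lower (-0.53, adjusted p = 0.0120).

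**Figure D5:**
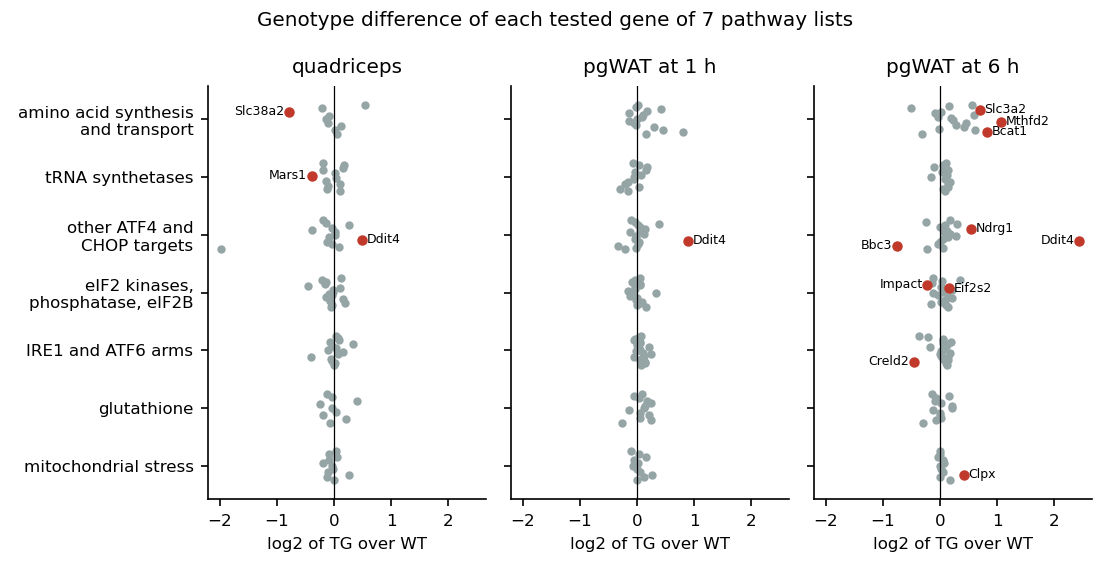
Log2 fold change of TG over WT (horizontal axis) of each tested gene of 7 pathway lists (rows) in the 3 sets. Red points are named and have an adjusted p under 0.05, grey points do not. Most genes lie near 0, with Slc38a2, Mars1 and Ddit4 named in quadriceps, Ddit4 at 1 h, and 10 genes at 6 h.

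No relation of Chac1 with another member over the libraries of a genotype passed its test. After removal of genotype means, 12 relations were computed, 3 in quadriceps over 20 libraries and 9 in pgWAT at 6 h over 12, and none passed after adjustment over the 12. The strongest was with Psat1 at 6 h (Pearson's r = -0.635, permutation p = 0.0391, adjusted 0.254, Spearman's rho = -0.615, permutation p = 0.0473, adjusted 0.568, and r = -0.566 without the 2 libraries farthest from the median). In quadriceps r was 0.118 with Atf4 (permutation p = 0.630, adjusted 0.941) and -0.422 with Ddit3 (permutation p = 0.0635, adjusted 0.254). Spearman's rho was 0.215 (p = 0.372, adjusted 0.762) and -0.385 (p = 0.0995, adjusted 0.597) for these, and r was 0.119 and -0.403 without the 2 farthest libraries.

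The genes whose level followed that of Chac1 most closely were other ones. In quadriceps they were Zkscan1 (r = 0.780), Mtss2 (0.729), Cdc42bpg (0.712), Tgfbr1 (0.692) and Plbd2 (0.690), over 20 libraries and among 7826 genes, of which 95% had an r below 0.381. Their own log2 fold changes lay between -0.18 and 0.12, and none passed the genotype test. At 6 h they were Mst1r (0.913), Dnajc8 (0.905), Zfp697 (0.902), H1f10 (0.893) and Ikbkb (0.882), over 12 libraries and 10320 genes, of which 95% lay below 0.521. Mst1r (log2 fold change -0.99, adjusted p = 1.1e-04) and Zfp697 (-0.84, adjusted p = 2.39e-04) were lower in TG by edgeR's test, and the other 3 did not pass. These are the highest of many values over few libraries that share depth and tissue makeup, and are a description.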

How the data were processed

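Libraries were made with a 3′ mRNA kit (QuantSeq FWD), with a module that adds unique molecular identifiers (UMIs) for quadriceps and pgWAT at 1 h and without it at 6 h, per the labels' protocols. The authors deposited raw counts, with no normalisation. The submitters' processing notes name bcl2fastq 2.20.0.422, UMI-tools 1.1.2, cutadapt 1.18, STAR 2.7.10, GRCm39 and GRCm38. The counter, its strand setting, UMI collapsing and the build of each table are not given in the sources used here. Summary rows of reads assigned to no gene (12.0% no feature, 12.5% not unique and 0.499% ambiguous in quadriceps, 24.4%, 10.0% and 0.450% at 1 h) and non-gene rows at 6 h (0.214%) were left out. Groups follow the titles. The treatment entry of quadriceps TG 10 names 1 h against its title.

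Each set was fitted alone with edgeR 4.0.16 in R 4.3.3 (filterByExpr, TMM, robust quasi-likelihood, Benjamini-Hochberg over all genes tested, threshold 0.05). Differences between sets used an interaction term. CPM are per TMM-scaled library. P-values measure only the spread between libraries, which may be technical. Correlations used log2 CPM with a prior count of 2 and 100000 permutations within genotype. Replicate numbers were not taken as pairs, since same-numbered libraries did not deviate together. Positions are from GENCODE on GRCm38 and promoters from RefSeq on GRCm38.p6. The tests were run first on simulated counts with known changes. Alternatives were DESeq2 1.42.0, other scalings and filters, a replicate block and single libraries left out, and the ones without libraries holding transcripts of other organs were added after seeing the data. The members and lists were chosen with earlier results of these data known. Named genes were all members, up to 4 called genes per list and set by smallest p, and the 5 genes most like Chac1 of at least 5 CPM. Atf3, Chac2, Slc7a1, Cbs, Slc6a9, Xpot, Xbp1, Eif2b1, Mylpf, Acta1 and the heat shock genes of quadriceps were named after their values were seen.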

Additional observations from a re-analysis of the deposited data

Results flagged for a closer look

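Of 60 groups of libraries examined for a member that stands apart from its group (Dixon's gap over range), 6 held one, where chance gives about 1 in 20. In quadriceps these were Sesn2 in TG 4 at 7.33 CPM (8 counts, next highest 3.66 CPM), Phgdh in TG 9 at 0.916 CPM (1 count, 0 in the other TG libraries) and Atf5 in WT 1 at 178 CPM (162 counts, next highest 89.1 CPM). In pgWAT at 1 h they were Gdf15 in TG 3 at 60.4 CPM (next highest 8.62 CPM), the library with the most liver transcripts, and Atf5 in TG 2 at 387 CPM (next highest 267 CPM). In pgWAT at 6 h Atf4 in TG 5 stood at 248 CPM, with the next highest at 188 CPM, and the call of Atf4 was lost without it.

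By the interaction test given above, the log2 fold change of Chac1 in quadriceps minus that in pgWAT at 1 h was -1.28, past the threshold. Chac1 had too few counts for a test at 1 h alone and entered this fit through quadriceps, so that nothing is read from this difference. This call rested on few counts at 1 h and was lost in 27 of 38 fits without a library, with a replicate block, and without the 11 libraries high in heat shock transcripts or transcripts of other organs (-0.80, adjusted p = 0.767).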

How the results depend on the processing

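The falls of Chac1 in quadriceps and of Ddit3 in pgWAT at 6 h kept direction and call under every alternative run for them. With no filter on low counts 2 members were called in quadriceps, since Atf4 passed (adjusted p = 0.0395). At 6 h 1 member was called under upper quartile scaling, with a replicate block and in the non-robust fit, and 1 to 3 when a library was left out. Between quadriceps and pgWAT at 6 h DESeq2 called 1. Between quadriceps and pgWAT at 1 h 0 were called with the replicate block or without the libraries high in heat shock transcripts or transcripts of other organs, and 0 to 1 without a single library. The count of all genes called at 1 h was 5 with no filter, 19 by DESeq2, 5 with the replicate block, 3 with the remainder of the library number after division by 8 as a factor, 1 without the 9 libraries and 3 to 12 without a single library. The cause was not tested. Directions turned only for values that did not pass. Ddit3 in quadriceps became 0.0023 under upper quartile scaling and 0.064 without WT 2 and WT 10 (-0.076 to 0.077 without a library). Atf5 at 1 h became -0.022 (upper quartile), -0.013 (no filter), -0.0012 (stricter filter) and -0.016 (replicate block), and -0.11 to 0.053 without a library. Asns at 1 h became 0.014 with the block and 0.30 without the 9 libraries (-0.15 to 0.034 without a library). Trib3 at 1 h became -0.036 with the remainder factor (-0.049 to 0.12), Psat1 0.033 without the 9 libraries, and Atf4 ran from -0.026 to 0.10. Gdf15 at 6 h ran from -0.53 to 0.26, and Sesn2 between quadriceps and pgWAT at 1 h from -0.059 to 0.28. Same-numbered TG and WT libraries did not deviate together (r over 0.1 in 3 of 10, 4 of 9 and 1 of 6 pairs), so the block is no paired analysis, and its lost calls are those above plus single genes of the lists. Too few counts for a test were found for 6 of 10 members in quadriceps, 2 at 1 h and 0 at 6 h in pgWAT, and depth and low expression were not told apart.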
